A study of Homo sapiens with 8 samples.

Results

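The insulin-like growth factor (IGF) axis was examined in LX-2 cells as 10 genes out of the 16796 listed for the series: the ligand IGF2, the receptors IGF1R and IGF2R, the binding proteins IGFBP2 to IGFBP7, and the protease PAPPA. The genes were taken by name, and all 10 had enough counts to be tested. LX-2 is an immortalised human hepatic stellate cell (HSC) line, a single line kept in an activated, myofibroblast-like state. In both groups the cells were grown in medium holding 5% fetal bovine serum and were exposed for 24 h, the control group to the solvent DMSO and the OGTi group to 50 µM OSMI-1, an inhibitor of O-GlcNAc transferase (OGT), the enzyme that places the sugar O-GlcNAc on intracellular proteins. Messenger RNA was sequenced in 4 biological replicates of each group, 8 libraries of 24166756 to 28201215 counts each, and the comparison asks how the transcripts of this growth factor system differ after OGT inhibition.

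IGF2 and IGF1 are secreted peptides that signal through the tyrosine kinase IGF1R, whereas IGF2R, which is also the cation-independent mannose 6-phosphate receptor, takes up IGF2 for breakdown in lysosomes and carries lysosomal enzymes. The IGF-binding proteins (IGFBPs) hold IGFs in the extracellular space and can restrict or prolong their access to the receptor. PAPPA, a secreted metalloprotease, cleaves IGFBP4 and IGFBP5 and so frees bound IGF, and the stanniocalcins STC1 and STC2 block PAPPA. In fibrotic liver, stellate cells and myofibroblasts are a known source of IGFBPs.

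OGTi libraries held less IGFBP5, IGFBP4, IGFBP3, IGFBP6 and PAPPA mRNA and more IGF2R mRNA than control libraries. PAPPA was 7.40-fold lower, IGFBP5 3.89-fold lower and IGFBP4 1.84-fold lower, while IGF2R was 1.59-fold higher. A gene was called when its q, the Benjamini-Hochberg adjusted p of the DESeq2 Wald test over all genes tested, was 0.05 or lower. Of the 10 genes, 1 was called higher, 5 were called lower and 4 (IGF2, IGF1R, IGFBP2 and IGFBP7) were not called. Among all 14028 genes with a q, 46.6% were called, 22.7% higher and 24.0% lower, so calls were common in these libraries. The median log2 fold change was -0.25 over the 10 genes and 0.00 over all genes tested. With 4 libraries per group, the groups did not overlap for 5 of the 10 genes, against 40.0% of all genes. These were IGF2R, which was higher (19.8% of all genes), and IGF1R, IGFBP4, IGFBP5 and PAPPA, which were lower (20.2% of all genes). All 4 replicate pairs went the same way for 7 of the 10 genes, against 58.5% of all genes. In all other settings IGF2R, IGFBP4, IGFBP5 and PAPPA kept their call, whereas IGF1R, IGFBP3 and IGFBP6 changed sides of the threshold in some. Between 5 and 7 of the 10 genes were called in these settings. The share of all genes called was then 43.2% in DESeq2 without the replicate block, 47.5% and 40.6% in edgeR with and without it, 45.6% with TMM library sizes and 45.9% with no filter on low counts. It was 40.5%, 37.3%, 38.2% and 37.9% without replicates 1, 2, 3 and 4 in turn.

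**Figure D1:**
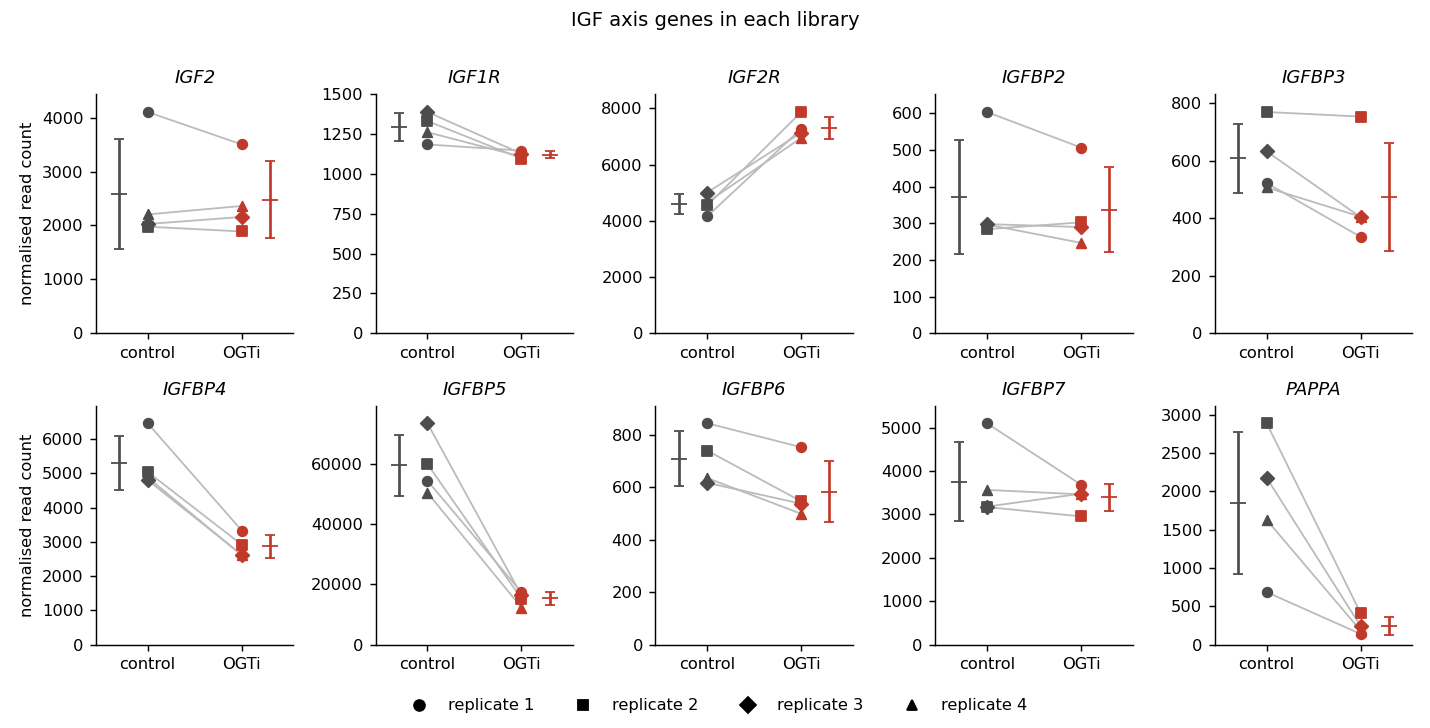
Normalised read count (linear axis from 0) of each of the 10 IGF axis genes in the control (grey) and OGTi (red) libraries. Symbols mark the replicate, lines join the control and OGTi library of the same replicate number, and the bars beside them give the mean ± SD (n = 4); IGFBP5 lies between 50590.5 and 73744 counts in control libraries and between 12328 and 17391 in OGTi libraries, whereas the IGF2 points of the groups overlap.

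The sequences upstream of the 4 genes with the smallest q are shown because these genes carry the change. The windows are the 250 bases before the transcription start in RefSeq (GRCh38.p14), written 5′ to 3′ on the strand of the gene. Windows were at hand for 8 of the 10 genes, and IGF2 and IGFBP7 were not examined in this way. Capitals mark every match, on either strand, to the motifs of TEAD, AP-1 and FOXO factors, the TATA box and the E-box, whose letters are spelled out after the sequences. No matches overlapped, and the E-box was added after these windows had been read.
IGFBP5, chr2:216695550-216695799, minus strand: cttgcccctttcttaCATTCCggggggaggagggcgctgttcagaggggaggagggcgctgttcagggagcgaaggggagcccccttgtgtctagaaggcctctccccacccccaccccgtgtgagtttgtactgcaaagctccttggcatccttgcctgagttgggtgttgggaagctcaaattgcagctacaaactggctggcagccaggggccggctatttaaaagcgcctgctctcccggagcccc
PAPPA, chr9:116153541-116153790, plus strand: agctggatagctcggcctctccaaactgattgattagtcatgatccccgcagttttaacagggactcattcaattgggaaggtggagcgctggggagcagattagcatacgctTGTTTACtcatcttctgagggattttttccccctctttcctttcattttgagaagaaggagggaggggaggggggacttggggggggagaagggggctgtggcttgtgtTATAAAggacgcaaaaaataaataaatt
IGFBP4, chr17:40443200-40443449, plus strand: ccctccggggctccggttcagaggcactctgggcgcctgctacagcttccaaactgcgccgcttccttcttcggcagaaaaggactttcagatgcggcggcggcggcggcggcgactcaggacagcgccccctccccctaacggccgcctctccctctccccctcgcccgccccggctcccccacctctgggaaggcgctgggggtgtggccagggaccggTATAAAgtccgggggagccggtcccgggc
IGF2R, chr6:159968832-159969081, plus strand: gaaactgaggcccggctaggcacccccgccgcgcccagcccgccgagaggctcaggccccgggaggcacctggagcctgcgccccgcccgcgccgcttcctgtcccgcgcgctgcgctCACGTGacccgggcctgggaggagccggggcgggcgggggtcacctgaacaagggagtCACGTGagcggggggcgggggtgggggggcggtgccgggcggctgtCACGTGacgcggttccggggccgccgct

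In the IGFBP5 window the TEAD core GGAATG lay on the opposite strand, 235 bases before the start. It was also present in the IGFBP6 window, 101 bases before the RefSeq start, and 9.61% of the 11479 windows of tested genes held it. The IGFBP6 window ran to position 53097666, past the start at 53097436 in the GENCODE annotation used for gene positions below. The TEAD match in IGFBP6 therefore lay inside the gene as GENCODE places it. The TATA box, searched as TATAAA, lay 29 bases before the IGFBP4 start and 28 before the PAPPA start, against 5.97% of windows. Only these exact letters were searched, so other forms of the TATA box were not counted in IGFBP5 or any other window. The FOXO motif GTAAACA lay 137 bases before the PAPPA start, on the opposite strand, and 186 before the RefSeq start of IGFBP6. The IGFBP6 match again lay inside the gene as GENCODE places it, and 2.01% of windows held the motif. No window of the 8 held the AP-1 motif TGANTCA, which 4.25% of windows did. The IGF2R window held the E-box, searched as CACGTG, 3 times, at 132, 74 and 28 bases before the start. At least 1 copy was found in 8.74% of windows and at least 3 in 0.166%, or 19 windows. Because the E-box was added after the IGF2R window had been read, these shares do not measure how unusual that window is. GC content was 79.2% for IGF2R, 71.6% for IGFBP4, 61.2% for IGFBP5 and 48% for PAPPA, with a median of 64.4% over the windows of tested genes. IGF2R held 33 CpG dinucleotides and PAPPA 5, where the median window held 20. These matches describe letters only, and binding was not measured in these data.

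IGF2, the ligand, lies on chromosome 11 (2129112 to 2158391, minus strand; GENCODE 44 on GRCh38, as for all gene positions given here), where it overlaps the readthrough gene INS-IGF2, which was not analysed here. Its normalised read counts in control replicates 1 to 4 were 4103, 1977, 2026 and 2204, and in OGTi replicates 1 to 4 they were 3502, 1888, 2157 and 2361. The groups overlapped, and replicate 1 was the highest library of each group. The means were 2577 ± 1022 and 2477 ± 710.1 (SD, n = 4), a log2 fold change of -0.03 ± 0.08 (SE) with a DESeq2 q of 0.820 and a 95% interval from -0.19 to 0.14. The OGTi library was lower in 2 of the 4 pairs and higher in the other 2. IGF1, the other ligand, had 0 to 3 counts in every library and received no q.

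IGF2R, on chromosome 6 (159969082 to 160113507, plus strand, 48 exons), had 4158, 4546, 5007 and 4655 normalised counts in control replicates 1 to 4. The OGTi libraries had 7275, 7871, 7135 and 6953, so that the lowest OGTi library stood above the highest control library. The means were 4592 ± 349.7 in control and 7309 ± 397 in OGTi libraries (SD, n = 4), and the log2 fold change was 0.67 ± 0.08 with a DESeq2 q of 1.76e-17. IGF2R was the only one of the 10 genes called higher, and it stood at position 262 when the genes called higher were ordered by their Wald statistic.

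IGF1R, on chromosome 15 (98648539 to 98964530, plus strand), had 1186, 1333, 1389 and 1263 normalised counts in control replicates 1 to 4 and 1147, 1097, 1128 and 1109 in OGTi replicates 1 to 4. Every OGTi library was below every control library, though control replicate 1 lay only slightly above OGTi replicate 1. The log2 fold change was -0.20 ± 0.09 with a DESeq2 q of 0.0524, which missed the threshold. The call depended on the model: q was 0.0305 in DESeq2 without the replicate block, 0.0358 in edgeR with the block and 0.0474 in edgeR without it, and 0.0353 in DESeq2 without replicate 1 (log2 fold change -0.26). It was 0.238, 0.222 and 0.159 in DESeq2 without replicates 2, 3 and 4, where the log2 fold change was -0.18, -0.18 and -0.21. The ratio of IGF2R to IGF1R, each divided by transcript length, was 2.97 to 3.21 in control libraries and 5.46 to 6.24 in OGTi libraries. INSR, the insulin receptor, which also binds IGF2, had 775 ± 134 normalised counts in control and 814 ± 32.7 in OGTi libraries (SD, n = 4), a log2 fold change of 0.09 ± 0.12 with a DESeq2 q of 0.580 and a 95% interval from -0.14 to 0.31.

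**Figure D2:**
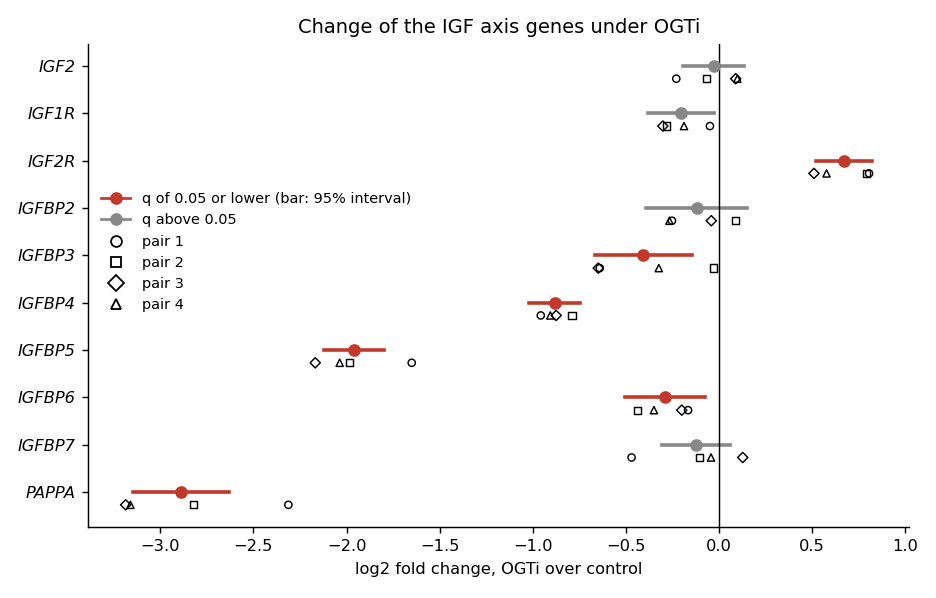
Log2 fold change of OGTi over control for the 10 IGF axis genes. Filled points and bars give the DESeq2 estimate with its 95% interval (red, q of 0.05 or lower; grey, q above 0.05), and open symbols give the log2 ratio within each replicate pair; PAPPA (-2.89), IGFBP5 (-1.96) and IGFBP4 (-0.88) lie furthest to the left and IGF2R (0.67) lies to the right.

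IGFBP5, a binding protein that is also found in the extracellular matrix, lies on chromosome 2 (216672105 to 216695549, minus strand). Its control libraries held 54573, 60156, 73744 and 50590.5 normalised counts for replicates 1 to 4, and its OGTi libraries held 17391, 15219, 16405 and 12328. The groups were far apart, and replicate 4 was the lowest of each. The means were 59766 ± 10111 and 15336 ± 2193 (SD, n = 4), and the log2 fold change was -1.96 ± 0.08 with a DESeq2 q of 2.16e-123. Only 6 genes called lower had a more negative Wald statistic. IGFBP5 was the most abundant of the 10 genes per transcript length in control libraries.

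IGFBP2, the neighbour of IGFBP5 at a distance of 7.67 kb and transcribed towards it, had 603.0, 284, 298 and 296 normalised counts in control replicates 1 to 4. The OGTi counts were 506, 302, 289 and 246. The groups overlapped and replicate 1 was the highest of each. With a log2 fold change of -0.12 ± 0.14 and a DESeq2 q of 0.510, IGFBP2 was not called, and the 95% interval from -0.39 to 0.15 did not reach the change of IGFBP5 (95% interval from -2.12 to -1.80).

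IGFBP4, the binding protein that PAPPA cleaves, lies on chromosome 17 (40443450 to 40457725, plus strand). It had 6464, 5042, 4805 and 4883 normalised counts in control replicates 1 to 4 and 3330.1, 2917, 2622 and 2606 in OGTi replicates 1 to 4. No OGTi library reached the lowest control library, and replicate 1 was the highest in each group. The means were 5298 ± 783 and 2869 ± 339 (SD, n = 4), a log2 fold change of -0.88 ± 0.07 with a DESeq2 q of 1.87e-34. The log2 ratios within the 4 pairs lay between -0.96 and -0.79.

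IGFBP3, the main IGF carrier of the circulation, on chromosome 7 (45912245 to 45921874, minus strand), had 523, 770.3, 633 and 508 normalised counts in control replicates 1 to 4. The OGTi libraries had 335, 754, 404 and 406, so that OGTi replicate 2 lay among the control values and the other 3 lay below them. The log2 fold change was -0.41 ± 0.13 with a DESeq2 q of 0.00648. This call was lost without the replicate block (DESeq2 q 0.180, edgeR q 0.202), without replicate 1 (log2 fold change -0.33, DESeq2 q 0.0722) and without replicate 3 (-0.33, q 0.0858). The pair ratios ranged from -0.65 to -0.03 on the log2 scale.

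IGFBP6, which binds IGF2 in preference to IGF1, on chromosome 12 (53097436 to 53102345, plus strand), had 845, 740.3, 617 and 635 normalised counts in control replicates 1 to 4 and 753, 546, 537 and 499 in OGTi replicates 1 to 4. Each OGTi library was below its control partner, but OGTi replicate 1 exceeded 3 of the control libraries. The log2 fold change was -0.29 ± 0.11 with a DESeq2 q of 0.0214. Without the replicate block the call was lost (DESeq2 q 0.118, edgeR q 0.121), as it was without replicate 2 (log2 fold change -0.24, DESeq2 q 0.175) and without replicate 4 (-0.27, q 0.126).

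IGFBP7, a secreted relative with low affinity for IGFs, on chromosome 4 (57030773 to 57110385, minus strand), had 5099.97, 3169, 3179 and 3563 normalised counts in control replicates 1 to 4. Its OGTi counts were 3685, 2952, 3474 and 3461. Control replicate 1 stood above all other libraries, which overlapped. The log2 fold change was -0.12 ± 0.09 with a DESeq2 q of 0.294 and a 95% interval from -0.30 to 0.06.

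PAPPA, the protease, lies on chromosome 9 (116153791 to 116402321, plus strand). Control replicates 1 to 4 had 685, 2892, 2179 and 1629.8 normalised counts, and OGTi replicates 1 to 4 had 137, 408, 238 and 181. The lowest control library, replicate 1, was still above the highest OGTi library, replicate 2. The means were 1846 ± 931 and 241 ± 119 (SD, n = 4), a log2 fold change of -2.89 ± 0.13 with a DESeq2 q of 3.37e-103. The spread within each group was wide: the highest control library was 4.22 times the lowest, and only 0.109% of 10994 genes with a mean of at least 100 normalised counts spread as widely, while the OGTi libraries spread 2.98 times (0.264% of genes). The median gene spread 1.23 times in control and 1.24 times in OGTi libraries. Without the replicate block the standard error was 0.53 and the DESeq2 q was 1.86e-07.

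Levels of different genes were compared as CPM per kilobase, the count scaled to the library total and divided by the length of the principal transcript. In control libraries IGFBP5 reached 354 ± 55.6, IGFBP7 97.6 ± 25.7, IGFBP4 89.1 ± 15.1, IGFBP6 27.8 ± 4.82, IGF2 17.2 ± 7.16, IGF2R 12.1 ± 0.66, IGFBP2 9.73 ± 4.29, IGFBP3 8.62 ± 1.81, PAPPA 6.22 ± 3.18 and IGF1R 3.91 ± 0.23 (SD, n = 4). IGFBP5 stood clear of the rest and IGFBP6 lay more than 1 SD from both neighbours, whereas IGFBP7 and IGFBP4 were within 1 SD of each other, as was each neighbouring pair from IGF2 down to IGF1R by the larger SD of the pair. In OGTi libraries IGFBP5 was at 96.7 ± 13.5 and IGFBP7 at 93.7 ± 9.19, which were within their spread of each other. This closeness depends on the length used: with merged exon lengths the OGTi means were 93.3 for IGFBP5 and 69.3 for IGFBP7. Among 15800 genes with a transcript length, IGFBP5 ranked 141 in control and 661 in OGTi libraries. PAPPA, at 0.863 ± 0.417, became the lowest of the 10 genes, and IGF2R, at 20.5 ± 0.97, stood above IGF2 at 17.5 ± 5.12 in mean, within the spread of IGF2. With merged exon lengths the order of these means turned, to 12.7 for IGF2R and 13.7 for IGF2. IGFBP2 in control libraries was then at 2.90, below PAPPA at 5.89 and IGF1R at 3.43.

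The summed level of the 6 IGFBP mRNAs was 587 ± 59.3 CPM per kilobase in control and 282 ± 28.8 in OGTi libraries (SD, n = 4), and the groups did not overlap (504.6 to 636 and 257 to 323). Without IGFBP5 the sums were 233 ± 48.3 and 186 ± 18.1 and the groups overlapped. IGFBP5 made up 60.3% ± 6.77 of the pool in control libraries and 34.2% ± 2.55 in OGTi libraries. The share of IGFBP7 was 16.6% in control and 33.3% in OGTi libraries, that of IGFBP4 15.2% and 18.1%, and that of IGFBP6 4.74% and 8.54%. These larger shares came without a higher level. The control and OGTi means were 97.6 and 93.7 CPM per kilobase for IGFBP7, 89.1 and 51.2 for IGFBP4, and 27.8 and 24.3 for IGFBP6. IGFBP2 and IGFBP3 stayed minor components, at 1.64% and 1.48% in control and 3.26% and 2.58% in OGTi libraries. With merged exon lengths these shares were 0.544% and 0.933% in control and 1.15% and 1.75% in OGTi libraries. The pool was 22.8 to 47.7 times the IGF2 level in control libraries and 13.0 to 20.4 times in OGTi libraries. IGFBP4 was 8.67 to 47.0 times its protease PAPPA in control and 35.6 to 121 times in OGTi libraries. These ranges overlapped, and the ratio was higher in the OGTi library of all 4 pairs (47.0 and 121, 8.67 and 35.6, 10.97 and 54.7, and 14.9 and 71.5 for replicates 1 to 4). These sums and ratios are descriptions of mRNA and were not tested.

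**Figure D3:**
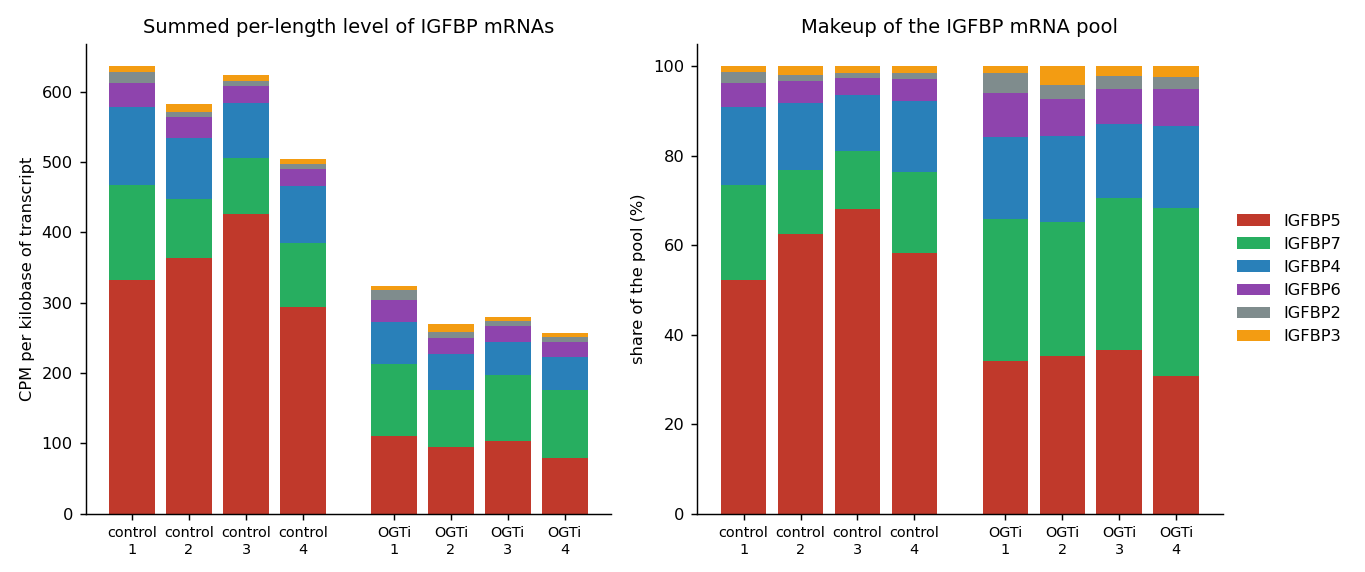
Left, summed level of the 6 IGFBP mRNAs in each library in CPM per kilobase of transcript, from 0; right, the share of each IGFBP in that sum in percent. Each bar is a library and each colour a gene. IGFBP5 (red) takes 60.3% of the control pool and 34.2% of the OGTi pool on average, and IGFBP7 (green) 16.6% and 33.3%. The mean level of IGFBP7 was 97.6 CPM per kilobase in control and 93.7 in OGTi libraries.

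Replicates of the same number shared their deviations in several of these genes. Replicate 1 was the highest library of both groups for 5 genes, IGF2, IGFBP2, IGFBP4, IGFBP6 and IGFBP7, a pattern found for 11.4% of 10994 genes with a mean of at least 100 normalised counts. Replicate 2 was the highest of both groups for IGFBP3 and PAPPA, and PAPPA was lowest in replicate 1 of both. On the log2 scale control replicate 1 departed from the mean of its group by 0.74 for IGF2 and 0.78 for IGFBP2, and OGTi replicate 1 by 0.54 and 0.65. For PAPPA the departures of replicate 1 were -1.25 in control and -0.69 in OGTi libraries. IGF1R and IGF2R showed no departure beyond 0.14 in either direction. The labels name no batch, and what sets replicate 1 apart was not tested.

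**Figure D4:**
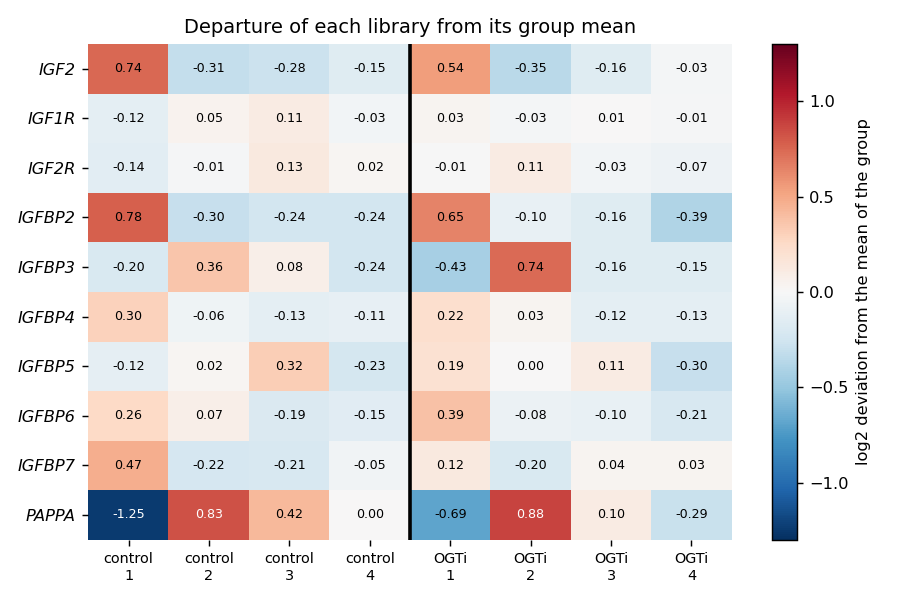
Departure of each library from the mean of its own group, as a log2 value, for the 10 IGF axis genes (rows) in the 8 libraries (columns, control left of the line). Red is above and blue below the group mean; replicate 1 is high in both groups for IGF2 (0.74 and 0.54) and IGFBP2 (0.78 and 0.65) and low in both for PAPPA (-1.25 and -0.69).

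The 3 genes whose log2 normalised counts followed IGFBP5 most closely over the 8 libraries, among 10984 genes, were TNRC18 (Pearson r 0.999), SPEG (0.996) and ADAM19 (0.994). Their log2 fold changes were -0.85, -0.89 and -1.16. IGF2R was followed by PTDSS1 (r 0.995), KCTD18 (0.991) and CENPP (0.990), with log2 fold changes of 0.86, 0.60 and 0.95. The 8 points are the same libraries for every gene and fall into the 2 groups, so these values are given as a description.

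Other genes of the pathway were read from 91 listed genes, of which 84 were in the files and 79 received a q. Of these, 24 were called higher, 20 were called lower and 35 were not called, with a median log2 fold change of 0.03. The 55.7% called stand beside the 46.6% over all genes.

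Among the regulators of IGFBP cleavage, 2 of 6 genes were called higher and 1 lower. STC1, an inhibitor of PAPPA, had 329, 471, 291 and 476 normalised counts in control replicates 1 to 4 and 1230.05, 842, 709 and 949 in OGTi replicates 1 to 4. STC1 thus rose in every pair (log2 fold change 1.25 ± 0.15, DESeq2 q 1.42e-15), the direction opposite to PAPPA. STC2, the paralogue, had 5254 ± 712 and 5259 ± 1249.5 normalised counts (SD, n = 4), a log2 fold change of -0.02 ± 0.10 with a DESeq2 q of 0.911. Per transcript length STC2 was 5.23 to 17.3 times PAPPA in control libraries and 44.1 to 79.6 times in OGTi libraries. ADAM12, a metalloprotease that cleaves IGFBP3 and IGFBP5, fell by 0.99 on the log2 scale (SE 0.16, DESeq2 q 6.03e-09), and HTRA1, a secreted serine protease that also acts on IGFBP5, rose by 0.68 (SE 0.12, q 4.43e-08). PAPPA2, the paralogue of PAPPA, had 5 to 21 counts per library and was not called (log2 fold change 0.50, q 0.577).

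Of 4 other genes with a q that encode an IGFBP domain, 1 was called lower and 1 higher. CRIM1, a transmembrane protein, fell (log2 fold change -0.92 ± 0.07, DESeq2 q 9.21e-37). ESM1 was called higher (1.27 ± 0.33, q 0.000447), with OGTi counts from 49.0 to 224, and this call was lost without replicate 1 (0.86, q 0.0521). IGFALS, the partner of IGFBP3 in serum complexes, had 0 to 14 counts per library.

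Below the receptor, 3 of 12 adaptors and brakes with a q were called higher and 4 lower. IRS1, the docking protein of IGF1R and INSR, had 5333, 7201, 8181 and 7023 normalised counts in control replicates 1 to 4 and 2532, 3160.0, 2907 and 2447 in OGTi replicates 1 to 4. IRS1 fell in every pair, with groups that did not overlap and a log2 fold change of -1.32 ± 0.09 (DESeq2 q 9.10e-50). IRS2 fell less, by 0.39 on the log2 scale (SE 0.09, q 6.55e-05). In the PI3K and AKT list 2 of 13 genes were called higher and 5 lower. The regulatory PI3K subunits PIK3R3 and PIK3R1 rose by 1.11 and 1.10 (DESeq2 q 4.96e-24 and 1.04e-22). In the mTOR and TSC list 5 of 14 were higher and 3 lower, among them AKT1S1, an inhibitory mTORC1 subunit (-0.86, q 8.37e-21), EIF4EBP1, a translation repressor (0.50, q 3.32e-07), and RHEB, the GTPase that activates mTORC1 (-0.29, q 0.000252).

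FOXO1, a transcription factor that AKT holds outside the nucleus, was the only one of 4 FOXO genes called, at 71.2 ± 11.6 normalised counts in control and 148 ± 19.3 in OGTi libraries (SD, n = 4; log2 fold change 1.06, DESeq2 q 3.20e-05). Of 10 FOXO target genes with a q, 4 were called higher and 3 lower. BCL2L11, which promotes apoptosis, rose by 1.64 (q 8.94e-50), while the cell cycle inhibitor CDKN1B and the thioredoxin inhibitor TXNIP had log2 fold changes of -1.12 (q 2.20e-41) and -1.01 (q 9.82e-38), so that the targets went both ways.

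IGF2BP2, an RNA-binding protein that binds IGF2 mRNA, was lower (log2 fold change -0.22 ± 0.07, DESeq2 q 0.00524), a call lost without replicate 3 (-0.18, q 0.0695) and without replicate 4 (-0.20, q 0.0685). IGF2BP3 was not called (-0.02, DESeq2 q 0.864), and IGF2BP1 had 0 to 10 counts per library. From the imprinted cluster around IGF2, 2 of 3 genes with a q, PHLDA2 and SLC22A18, were called higher. In the mannose 6-phosphate sorting list, which contains the partners of IGF2R in lysosomal transport, 4 of 7 genes were higher and 2 lower. M6PR, the smaller cation-dependent mannose 6-phosphate receptor, rose as IGF2R did, from 4402 ± 238 to 5974 ± 472 normalised counts (SD, n = 4; log2 fold change 0.44 ± 0.07, DESeq2 q 3.99e-09). GNPTAB and NAGPA, whose products build the mannose 6-phosphate tag, had log2 fold changes of -0.40 (q 5.79e-05) and -0.41 (q 0.00288), and NAGPA lost its call without replicate 4 (-0.37, q 0.0504). GNPTG, of the same list, was called higher (log2 fold change 0.35, DESeq2 q 0.00684). Of the 6 promoter windows found for this list, 2 held the E-box, against 8.74% of the windows of tested genes. They were those of GNPTG and NAGPA, which changed in opposite directions. A link between the E-box and these changes was not tested.

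**Figure D5:**
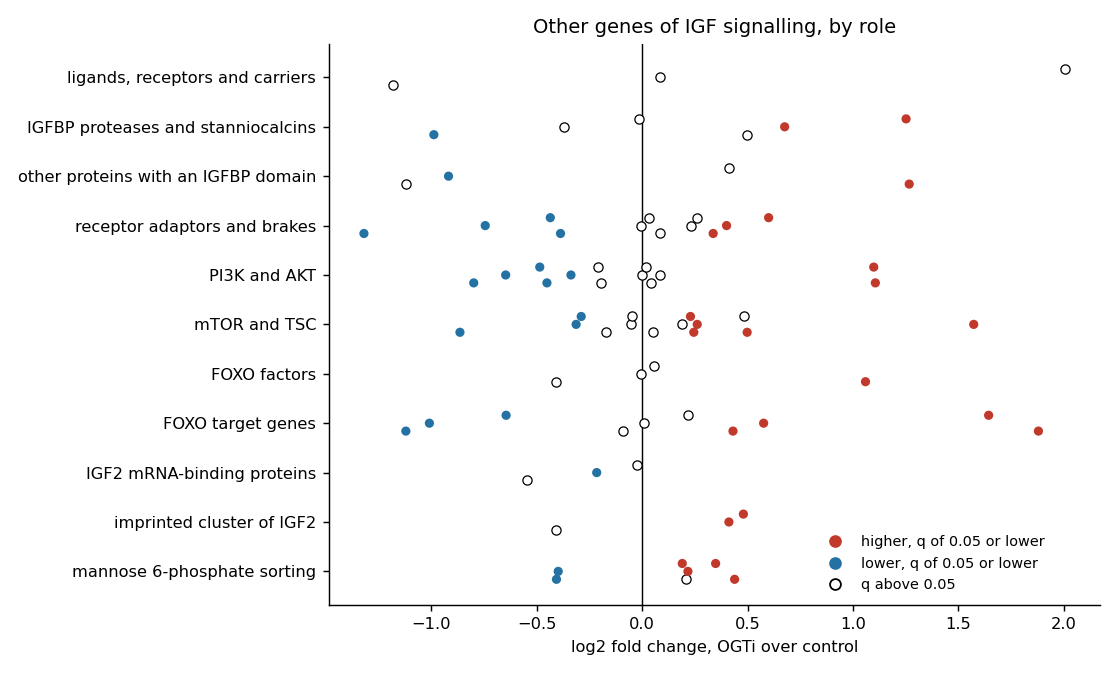
Log2 fold change of OGTi over control for 79 other genes of IGF signalling, a point per gene and a line per role (filled red, called higher; filled blue, called lower; open, q above 0.05). Called genes lie on both sides of 0 in most roles, with IRS1 (-1.32) the furthest to the left; the open points at 2.01 (IGFALS), -1.18 (INSRR) and -1.12 (HTRA4) rest on few counts.

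The cell identity and the target of the drug were read from the same libraries. OGT mRNA was at 5636 ± 260.5 normalised counts in control and 4146 ± 477 in OGTi libraries (SD, n = 4; log2 fold change -0.45, DESeq2 q 1.48e-06), although OSMI-1 acts on the protein, so this is no check of the inhibition. Of 10 stellate cell markers 7 had a mean of at least 100 normalised counts, and the list summed to 197667 to 237998 in control and 144206 to 167003 in OGTi libraries, while DES and LRAT were under 10 counts in every library. Other cell types were represented by a single abundant gene or none: CYP2E1 for hepatocytes (4 of 8 markers analysed here, sum 47.1 to 105 in control and 201 to 299 in OGTi libraries), SOX9 for cholangiocytes (3 of 5, sum 681 to 1151 and 955 to 1273), none for endothelium (4 of 6, sum 49.7 to 91.1 and 17.0 to 33.8), and the lysosomal CD68 for macrophages (4 of 6, sum 2482 to 4089 and 5610 to 9391). Of the markers of these other cell types, APOA1, KRT19, PECAM1, KDR and CSF1R were under 10 counts in every library. The other markers analysed for them reached 10 counts in some library. The part of these list differences in the IGF axis results was not tested. Every library came from LX-2 cultures, so these sums describe marker expression in that line and not a mixture of liver cell types. In bulk RNA, fewer LX-2 cells expressing a marker and less marker RNA per cell cannot be told apart.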

How the data were processed

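Polyadenylated RNA of 4 control and 4 OGTi LX-2 cultures was sequenced with a stranded protocol. The authors aligned reads to hg38 with Bowtie2 2.3.5.1 and estimated counts per gene with RSEM 1.3.1, and the deposited files hold these expected counts, unscaled for depth. RSEM shares a read between genes it fits, and 12.9% to 16.3% of values per library were fractional. The authors' deposited DESeq2 1.36.0 comparison (fold changes and p-values) was not used. Expected counts were rounded, genes under 10 counts in total over 8 libraries were left out, and DESeq2 1.42.0 in R 4.3.3 fitted treatment with the replicate number as a block (Wald test, median-of-ratios size factors, no shrinkage, Benjamini-Hochberg over all genes, called at q of 0.05 or lower). The size factor of a library divides its counts to give normalised counts.

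The study's methods pair samples by replicate. Deviations from the group means correlated at 0.372, 0.391, 0.165 and 0.327 between same-numbered libraries 1 to 4 over 10994 genes, though control replicate 3 was closer to OGTi replicate 4 (0.343). Levels per length used GENCODE 44 transcripts, matched for 15800 of 16796 genes. Like-pattern genes used log2(normalised count + 1). Alternatives were edgeR 4.0.16 quasi-likelihood, no block, TMM library sizes, no count filter, merged exon lengths and leaving out each replicate. The 10 genes, the pathway lists and the marker lists were chosen with earlier results of these data known. Named genes were the 10 members, a fixed set from the pathway lists, and in each other list up to 3 called genes with the largest Wald statistic. INS, IGFBP1, H19 and INS-IGF2 were not analysed here. P-values of the main fit measure the spread left between cultures of 1 cell line once replicate differences are taken out by the block.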

Additional observations from a re-analysis of the deposited data

Results flagged for a closer look

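In each gene and group of 4 libraries the gap between the extreme library and its nearest neighbour was set against the whole range. Of 88 groups tested 4 stood apart, where independent groups would give about 1 in 20 by chance, or 4.4. All 4 fell in the 10 IGF axis genes, each of which entered the 88 with a control and an OGTi group. Genes share the same libraries, so the groups are not independent and the expected number is only a scale. In the control group, replicate 1 held 4103 normalised counts of IGF2 (the other 3 libraries 1977 to 2204), 603.0 of IGFBP2 (284 to 298) and 6464 of IGFBP4 (4805 to 5042), so that 3 of the 4 fell in the same library. In the OGTi group, replicate 2 held 754 normalised counts of IGFBP3 (the others 335 to 406). Their cause was not tested.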

How the results depend on the processing

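IGF2R, IGFBP4, IGFBP5 and PAPPA were called in the same direction under all 9 alternatives. Between 5 and 7 of the 10 genes were called, against 6 as reported, and between 5127 and 7074 of all genes, against 6541. Without the pairing (no replicate block) 5 of the 10 genes and 6307 of all genes were called by DESeq2, and 5 and 6041 by edgeR. Only IGF1R, IGFBP3 and IGFBP6 changed their call among the 10 genes, as given with their values. With each replicate left out in turn, the log2 fold change ranged from -0.070 to 0.043 for IGF2 and from -0.037 to 0.15 for INSR, and neither was called in any setting. STC2 also changed sign, to 0.0012 in DESeq2 and 0.0019 in edgeR without the block, with -0.11 to 0.11 when a replicate was left out, as did IGF2BP3 (-0.081 to 0.016). Among the other genes named, IGF2BP2, ESM1 and NAGPA lost their call when a replicate was left out. With merged exon lengths IGFBP5 made up 64.3% of the control pool and 39.2% of the OGTi pool, and the order of IGF2 and IGF2R turned in OGTi libraries. Of 401 values over 45 genes 377 kept direction and side of the threshold. The alternative of adding INS-IGF2 counts to IGF2 was not run. Genes with under 10 counts per library carry no usable fold change at this depth.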
